A study of Homo sapiens with 12 samples.

Results

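The genes described here are MYC, its neighbours on the long arm of human chromosome 8 (LRATD2, PCAT1, CASC8, POU5F1B, CCAT1, CASC11 and PVT1), and CDX2 and PDX1, which lie side by side on chromosome 13. They were chosen because the literature on the colorectal cancer line COLO320DM places them on its extrachromosomal amplicon, and the rule uses no value of these libraries, though earlier results of these data were known. Of the 10 genes, 9 had a row among the 60623 rows of the count table, and all 9 were among the 23684 genes that passed the filter on low counts. CCAT1 had no row under its own identifier and gets no value. The 12 libraries form 4 groups of 3. They are COLO320DM cells with pCMV6-HKDC1, a plasmid that expresses hexokinase domain containing 1 from the CMV promoter, COLO320DM cells with the empty vector pCMV6-Entry, and SW480 cells with each of the same plasmids. All cells had received 10 µg of plasmid with Lipofectamine for 24 h, so untransfected cells are not part of the comparison. COLO320DM and SW480 are established lines from human colorectal tumours, and each is a single line, so a difference between them is a difference between 2 lines and not between classes of tumour. Nothing in the labels says that replicates were separate cultures, so p-values measure only the spread between these libraries.

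MYC is a transcription factor that dimerizes with MAX and binds E-box DNA at genes of growth, ribosome production and metabolism. It is flanked by a stretch of DNA with few coding genes and many long non-coding RNAs, which holds enhancers of MYC and inherited risk variants for colorectal cancer. Tumour cells can carry such a stretch as circular extrachromosomal DNA, which is copied and transcribed with its neighbours. In COLO320DM these circles are known to hold MYC together with parts of chromosome 13, and transcripts that join the first exon of PVT1 to MYC have been described. CDX2 is the homeobox factor that gives intestinal epithelium its identity, and PDX1 is the homeobox factor of the pancreas and duodenum.

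Library totals ranged from 33790733 to 45451279 counts. HKDC1 had 269799 to 333102 counts with its plasmid and 0 to 1 with the empty vector in COLO320DM, and 477515 to 499910 counts with its plasmid against 1275 to 1549 with the empty vector in SW480, so the plasmid labels held in every library. Within each group, replicate 1 stood apart from replicates 2 and 3. The chi-square per degree of freedom was 24.5 to 82.9 for replicate 1 against either of the others and 3.18 to 10.1 between replicates 2 and 3. Levels are given as CPM, counts relative to the TMM-scaled library size. The colon epithelial genes EPCAM (1.81 against 517 CPM, COLO320DM against SW480 with empty vector), CDH1 (0.0308 against 28.1 CPM) and VIL1 (9.6 against 323 CPM) were near 0 or far lower in COLO320DM. Of 8 such markers 7 were tested, 5 passed as lower there and 1, CDX2 itself, as higher, and without CDX2 their summed level was 204 to 260 CPM in COLO320DM and 6278 to 8787 CPM in SW480 with empty vector (1577 to 1760 and 6287 to 8810 CPM with it). Of the markers of a neuroendocrine identity that is often given to this line, INSM1 had 0 counts in all 6 COLO320DM libraries. CHGA averaged 0.338 CPM in COLO320DM and 0.108 CPM in SW480 with empty vector and did not pass (adjusted p = 0.0906, edgeR). Of 5 neuroendocrine markers tested, 3 passed as lower and 1, CHGB, as higher (2.01 against 0.467 CPM, adjusted p = 0.000193, edgeR). The 7 markers summed to 27.4 to 36 CPM in COLO320DM and 61.3 to 80.6 CPM in SW480. Most of that sum was ENO2, which averaged 28.5 CPM in COLO320DM and 62.7 CPM in SW480. PTPRC, the leukocyte antigen CD45, averaged 36.6 CPM in COLO320DM and 0.022 CPM in SW480 with empty vector. Of 4 blood and immune markers 3 were tested and 2 passed as higher in COLO320DM, while LYZ did not pass, and the summed level of the 4 was 38.6 to 41.7 CPM in COLO320DM and 0.233 to 0.461 CPM in SW480. Their part in the results below was not tested.

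Between the lines, 8 of the 9 genes were higher in COLO320DM with empty vector, and the same 8 with the HKDC1 plasmid, by edgeR's quasi-likelihood test at an adjusted p under 0.05. Of all genes tested, 34.3% passed as higher with empty vector, 33.5% with the HKDC1 plasmid and 31.4% in both. CASC8 was the gene that did not pass. The rises, as log2 fold changes of COLO320DM over SW480 with empty vector, ran from 1.87 for MYC to 7.18 for POU5F1B. The median over the 9 genes was 3.48, against −0.04 over all genes tested. With 3 libraries against 3, an exact two-sided permutation test cannot give a p below 0.1, and it gave 0.1 for each of the 8 genes in both comparisons. All COLO320DM libraries lay above all SW480 libraries for these 8 genes, as for 35.3% of all genes tested with empty vector and 36% with the HKDC1 plasmid. Together the 9 genes took 0.967% to 0.993% of all counts in COLO320DM with empty vector, against 0.126% to 0.15% in SW480. DNA copy number was not measured, so more copies and more RNA per copy cannot be told apart, and in RNA from a culture neither can more cells with the transcript and more RNA per cell.

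**Figure D1:**
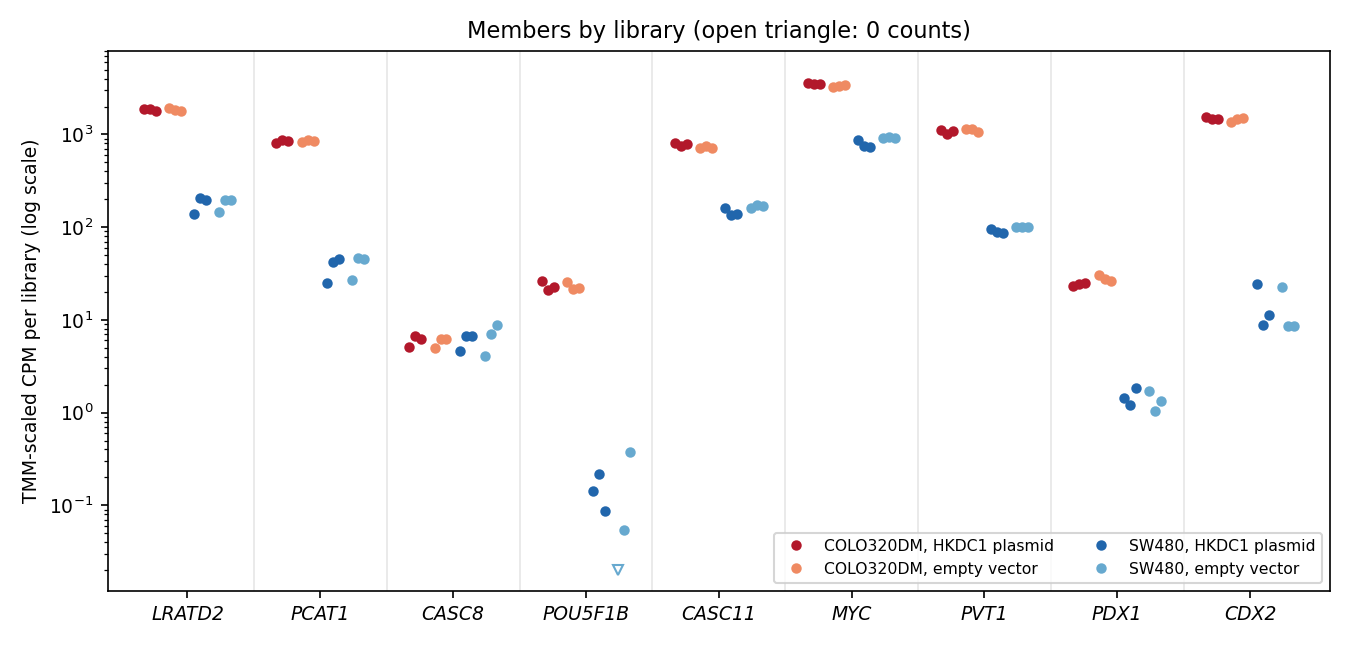
CPM, counts scaled to library size by TMM (log scale), of the 9 genes in each of the 12 libraries, with the chromosome 8 genes from LRATD2 to PVT1 in order of their lowest coordinate and PDX1 and CDX2 at the right. Each point is 1 library, and the open triangle marks the SW480 library with 0 POU5F1B counts. COLO320DM libraries lie above SW480 libraries for every gene but CASC8, whose libraries lie between 4.12 and 8.72 CPM in all 4 groups.

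LRATD2, a gene of the LRAT domain family formerly called FAM84B, lies at the low-coordinate end of the neighbours (chr8:126552443-126558478, minus strand, GRCh38). It had 1862, 1889 and 1794 CPM in COLO320DM with the HKDC1 plasmid and 1935, 1858 and 1783 CPM with empty vector. In SW480 it had 140, 208 and 194 CPM with the HKDC1 plasmid and 144, 196 and 198 CPM with empty vector. The lines did not overlap, and replicate 1 was the lowest SW480 library with either plasmid. On the log2 scale the change of COLO320DM over SW480 was 3.37 (SE 0.16, adjusted p = 6.98e-10, edgeR) with empty vector and 3.35 (SE 0.16) with the HKDC1 plasmid. Per kilobase of exon, LRATD2 averaged 324 CPM in COLO320DM with empty vector and ranked 136 of 23684 genes, against 31.3 CPM and rank 1764 in SW480.

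PCAT1, a long non-coding RNA first described in prostate cancer, starts beside LRATD2 on the other strand (chr8:126556323-127419050, plus strand). Its level was 813, 876 and 845 CPM in COLO320DM with the HKDC1 plasmid and 832, 861 and 844 CPM with empty vector. SW480 had 25.3, 42.2 and 45 CPM with the HKDC1 plasmid and 27.2, 46 and 45 CPM with empty vector. As for LRATD2, the lines were far apart and replicate 1 was the lowest in both SW480 groups. PCAT1 had a log2 fold change of 4.42 (SE 0.24, adjusted p = 1.8e-09, edgeR) with empty vector and 4.49 (SE 0.24) with the HKDC1 plasmid. The exons of PCAT1 and LRATD2 share 1409 bases on opposite strands, which is 24.6% of LRATD2 and 8.36% of PCAT1. No step that marks strand is described, so reads in that stretch cannot be assigned to either. The PCAT1 level in each line, and the size of its fold, can therefore include LRATD2 reads. The PCAT1 count was 43% to 47.3% of the LRATD2 count in COLO320DM and 18.9% to 23.4% in SW480 with empty vector. The SW480 share lies below the 24.6% of LRATD2 exon bases in the shared stretch. The whole PCAT1 count of SW480 could therefore be LRATD2 reads, and the split was not tested.

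POU5F1B, a retrotransposed copy of the pluripotency factor gene POU5F1 (chr8:127322183-127420066, plus strand), differed by a log2 fold change above 6 in both comparisons, as CDX2 did, and which of them was higher depended on replicate 1. It had 1067, 759 and 776 counts in COLO320DM with the HKDC1 plasmid and 1078, 917 and 945 counts with empty vector. SW480 had 5, 9 and 3 counts with the HKDC1 plasmid and 0, 2 and 17 counts with empty vector. Every COLO320DM library was above every SW480 library, and the SW480 values were so few that single libraries set the size of the fold. The log2 fold change was 7.18 (SE 0.45, adjusted p = 8.53e-09, edgeR) with empty vector, and it was 9.59 without SW480 empty-vector replicate 3, which held 17 of the counts, and 6.54 without replicate 1 of every group. With the HKDC1 plasmid it was 7.22 (SE 0.45). POU5F1 itself went the other way, with 0.266 CPM in COLO320DM and 0.859 CPM in SW480 with empty vector (log2 fold change −1.68, SE 0.49, adjusted p = 0.00785, edgeR). The near-identity of the copies makes the split of reads between them uncertain, and 848 bases of POU5F1B exon (17.1%) are also PCAT1 exon on the same strand.

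CASC8, a long non-coding RNA that spans POU5F1B on the other strand (chr8:127289817-127482139, minus strand), did not share the difference. It had 5.07, 6.74 and 6.19 CPM in COLO320DM with the HKDC1 plasmid and 4.95, 6.15 and 6.2 CPM with empty vector. SW480 had 4.6, 6.7 and 6.7 CPM with the HKDC1 plasmid and 4.12, 7.02 and 8.72 CPM with empty vector. The libraries of the lines overlapped in both comparisons. The log2 fold change was −0.20 (SE 0.24, adjusted p = 0.467, edgeR) with empty vector and −0.00 (SE 0.24, adjusted p = 0.995) with the HKDC1 plasmid, which does not show that the lines have equal levels. With empty vector, CASC8 passed as lower in COLO320DM without SW480 replicate 1 (−0.46, adjusted p = 0.0462) and without replicate 1 of every group (−0.37, adjusted p = 0.0088), and it was 0.04 without SW480 replicate 3.

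Around CASC8, neighbours that are not among the 9 genes went in opposite directions. CCAT2, a non-coding RNA from an enhancer of MYC, starts −0.335 Mb from the MYC start (negative distances are towards lower coordinates). It had 9540, 7464 and 8165 counts in COLO320DM and 0 in each SW480 library with empty vector, at least 7937-fold higher against a floor of 3 counts over the group. With the HKDC1 plasmid it had 8493, 7360 and 6792 counts in COLO320DM against 0, 1 and 0 in SW480. CASC19, at −0.508 Mb, was lower in COLO320DM, with a mean of 9.65 ± 0.598 CPM against 31.5 ± 1.55 CPM in SW480 with empty vector (SD, n = 3 each). Its log2 fold change was −1.71 (SE 0.11, adjusted p = 9.59e-09, edgeR) with empty vector and −1.60 (SE 0.11) with the HKDC1 plasmid. RefSeq places CCAT1 (chr8:127207382-127219268, GRCh38.p14) inside the span of CASC19, and 12.6% of the exon bases of CASC19 fall in that stretch. The CASC19 count was therefore not read as a value of CCAT1. PRNCR1, at −0.656 Mb, had a log2 fold change of −0.08 (SE 0.17, adjusted p = 0.698, edgeR) with empty vector.

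MYC (chr8:127735434-127742951, plus strand) was the most abundant of the 9 genes in either line. It had 3597, 3478 and 3466 CPM in COLO320DM with the HKDC1 plasmid and 3285, 3367 and 3404 CPM with empty vector. SW480 had 863, 751 and 733 CPM with the HKDC1 plasmid and 906, 936 and 914 CPM with empty vector. The lowest COLO320DM library was 3.51 times the highest SW480 library with empty vector and 4.02 times with the HKDC1 plasmid. MYC thus had a log2 fold change of 1.87 (SE 0.09, adjusted p = 8.33e-10, edgeR), a 3.65-fold difference, with empty vector and 2.17 (SE 0.09, adjusted p = 2.34e-10) with the HKDC1 plasmid. Of the 8 genes that rose it had the smallest fold, and 11.6% of all genes tested had a log2 fold change as high or higher. Per kilobase of exon MYC ranked 53 of 23684 genes in COLO320DM and 236 in SW480 with empty vector, so it was already among the most abundant transcripts of SW480.

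CASC11 is a non-coding RNA that starts within MYC and runs the other way (chr8:127686343-127738987, minus strand). It had 810, 751 and 789 CPM in COLO320DM with the HKDC1 plasmid and 710, 751 and 715 CPM with empty vector. SW480 had 160, 136 and 138 CPM with the HKDC1 plasmid and 163, 172 and 169 CPM with empty vector. The groups of the lines did not overlap, and the log2 fold change was 2.11 (SE 0.09, adjusted p = 2.29e-10, edgeR) with empty vector and 2.44 (SE 0.09) with the HKDC1 plasmid. As a share of the MYC count, CASC11 was 21.6% ± 0.665 in COLO320DM and 18.3% ± 0.291 in SW480 with empty vector (SD, n = 3 each). These shares did not overlap between the lines, and the exact two-sided permutation test gave p = 0.1, its smallest value. Exons of the genes share 194 bases on opposite strands (4.23% of MYC and 3.77% of CASC11), so part of the CASC11 count can be MYC reads.

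PVT1, the long non-coding RNA gene downstream of MYC (chr8:127794526-128187101, plus strand), rose by a larger factor than MYC. It had 1123, 1011 and 1103 CPM in COLO320DM with the HKDC1 plasmid and 1142, 1149 and 1061 CPM with empty vector. SW480 had 96.3, 89.2 and 85.6 CPM with the HKDC1 plasmid and 101, 101 and 99.5 CPM with empty vector. The lowest COLO320DM library was 10.5 times the highest SW480 library in either comparison, and the log2 fold change was 3.48 (SE 0.09, adjusted p = 2.98e-12, edgeR) with empty vector and 3.58 (SE 0.09) with the HKDC1 plasmid. The PVT1 count was 34.8%, 34.1% and 31.2% of the MYC count in COLO320DM with empty vector, against 11.1%, 10.8% and 10.9% in SW480. With the HKDC1 plasmid the share was 30.7% ± 1.45 in COLO320DM and 11.6% ± 0.369 in SW480 (SD, n = 3 each). The shares did not overlap between the lines (exact two-sided permutation p = 0.1 in each comparison, the smallest possible). The share counts whole-gene reads, and joined transcripts of PVT1 and MYC are not resolved in a table of counts per gene.

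The difference between the lines was uneven along PVT1. Short features annotated inside its exons had counts of their own, so the table counts such reads for both genes. MIR1204, a microRNA gene 1.44 kb from the PVT1 start, averaged 88.2 ± 16.2 CPM in COLO320DM and 11.8 ± 1.68 CPM in SW480 with empty vector (SD, n = 3 each). RF02166, a 95-base feature 96.1 kb from the start, averaged 323 ± 21.9 CPM in COLO320DM and 15.4 ± 0.97 CPM in SW480. Its reads were 28.9% ± 1.5 of the PVT1 count in COLO320DM and 15.4% ± 0.997 in SW480 with empty vector, while with the HKDC1 plasmid they were 27.9% ± 0.327 and 13.7% ± 1.47. MIR1204 went the other way as a share of PVT1, with 7.87% ± 1.21 in COLO320DM and 11.8% ± 1.62 in SW480 with empty vector. Neither share overlapped between the lines in the empty-vector comparison (exact two-sided permutation p = 0.1, the smallest possible).

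In the far part of PVT1, RNVU1-32 and RNU4-25P were lower in COLO320DM and AC103705.1 was not. RNVU1-32, a U1 small nuclear RNA variant gene 205 kb from the start, had 3, 1 and 0 counts in COLO320DM and 9, 17 and 22 counts in SW480 with empty vector (log2 fold change −3.53, SE 0.81, adjusted p = 0.00161, edgeR). RNU4-25P, a small nuclear RNA pseudogene at 216 kb on the other strand, had 34, 39 and 29 counts in COLO320DM and 224, 178 and 192 counts in SW480. AC103705.1, at 215 kb, had 218, 460 and 496 counts in COLO320DM and 381, 277 and 344 counts in SW480 with empty vector, where the groups overlapped. With the HKDC1 plasmid it passed as higher in COLO320DM (log2 fold change 0.67, adjusted p = 0.0385, edgeR). MIR1206 had at most 2 counts in any library and MIR1207 had 0 in all 12, so neither gives a difference at this depth. Small non-coding RNAs without a poly-A tail are poorly kept by poly-A selection, and counts in these features may be reads of the host transcript.

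**Figure D2:**
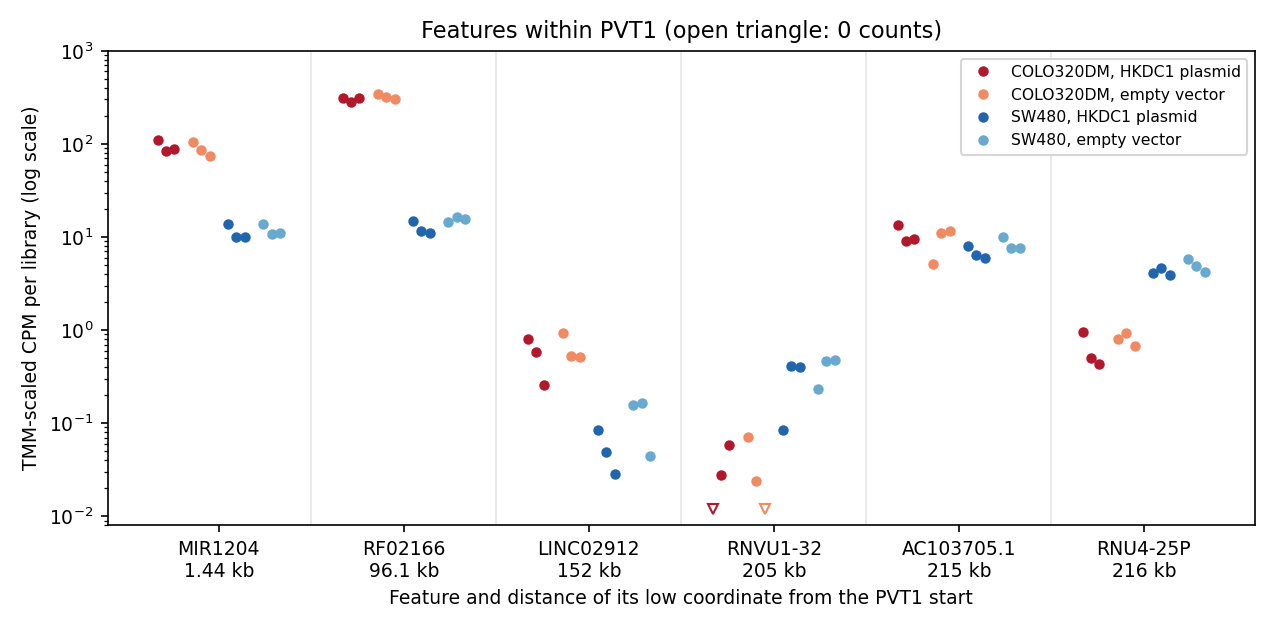
TMM-scaled CPM (log scale) of 6 features annotated within PVT1, ordered by the distance in kilobases of their lowest coordinate from the PVT1 start, with 1 point per library and open triangles for 0 counts. COLO320DM libraries lie above SW480 libraries at 1.44, 96.1 and 152 kb, below them at 205 and 216 kb, and overlap them at 215 kb.

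Genes around MYC were then counted by distance, with MYC and its 6 measured neighbours named at the outset among them. Within 2 Mb of the MYC start, 28 of 52 genes in the table were tested, of which 19 (67.9%) passed as higher and 5 as lower in COLO320DM with empty vector, against 34.3% and 37.3% of all genes tested. With the HKDC1 plasmid the counts were 20 and 5. Without those 7 genes, 13 of 21 (61.9%) passed as higher and 5 as lower with empty vector. Of the 21, AC084116.1, AC084116.2, AC084116.3, RNU6-869P and CCAT2 had 0 SW480 counts with empty vector, and further ones were near 0 there. Such genes passed the filter only through COLO320DM and could not come out as lower, as ENSG00000286034, with 0 COLO320DM counts, could not as higher. MIR1204 and RF02166 lie within PVT1 exons, so the count still holds PVT1 reads. It is therefore not separate support for a rise around MYC. All 7 tested genes that lie between 1 and 2 Mb from MYC, LRATD2 and PCAT1 included, passed as higher. Their median log2 fold change was 5.58 when genes with 0 counts in SW480 were set at their lower bound. Besides LRATD2 and PCAT1, which share exon bases, these were AC084116.1, AC084116.2, AC084116.3, RNU6-869P and CCDC26, all at or near 0 in SW480. They passed the filter only through COLO320DM and could not come out as lower, and the median rests on such a bound. Between 0.5 and 1 Mb, 1 of 6 passed as higher and 3 as lower, and from 2 to 5 Mb 15 of 37 passed as higher and 11 as lower. Counts over genes are a description, since several of these genes overlap and share reads.

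By fitted value, which depends on a prior count for genes at 0 in SW480, the 5 largest rises within 2 Mb of MYC were CCAT2, AC084116.1 (at −1.238 Mb, 1299 counts against 0 over the empty-vector libraries, at least 410-fold), CCDC26, AC084116.2 (at −1.261 Mb, at least 72.9-fold) and ENSG00000286010. CCDC26, a long non-coding RNA gene studied in leukaemia, starts 1.948 Mb from MYC. It averaged 46.4 ± 10.3 CPM in COLO320DM and 0.0665 ± 0.0149 CPM in SW480 with empty vector (SD, n = 3 each), a log2 fold change of 9.39 (SE 0.33, adjusted p = 3.52e-11, edgeR). ENSG00000286010, at −0.064 Mb, averaged 34 ± 8.12 CPM in COLO320DM and 0.0574 ± 0.00748 CPM in SW480. The 3 largest falls were ENSG00000286034 at 0.588 Mb (0 against 41 counts, at least 14.4-fold lower), LINC00824 at 0.829 Mb (log2 fold change −3.77, SE 0.75, adjusted p = 0.000823, edgeR) and RNVU1-32. Of the 5 genes that passed as lower, 4 lay between 0.264 and 0.829 Mb from MYC, where no tested gene passed as higher with empty vector, and CASC19 had genes that passed as higher on either side.

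**Figure D3:**
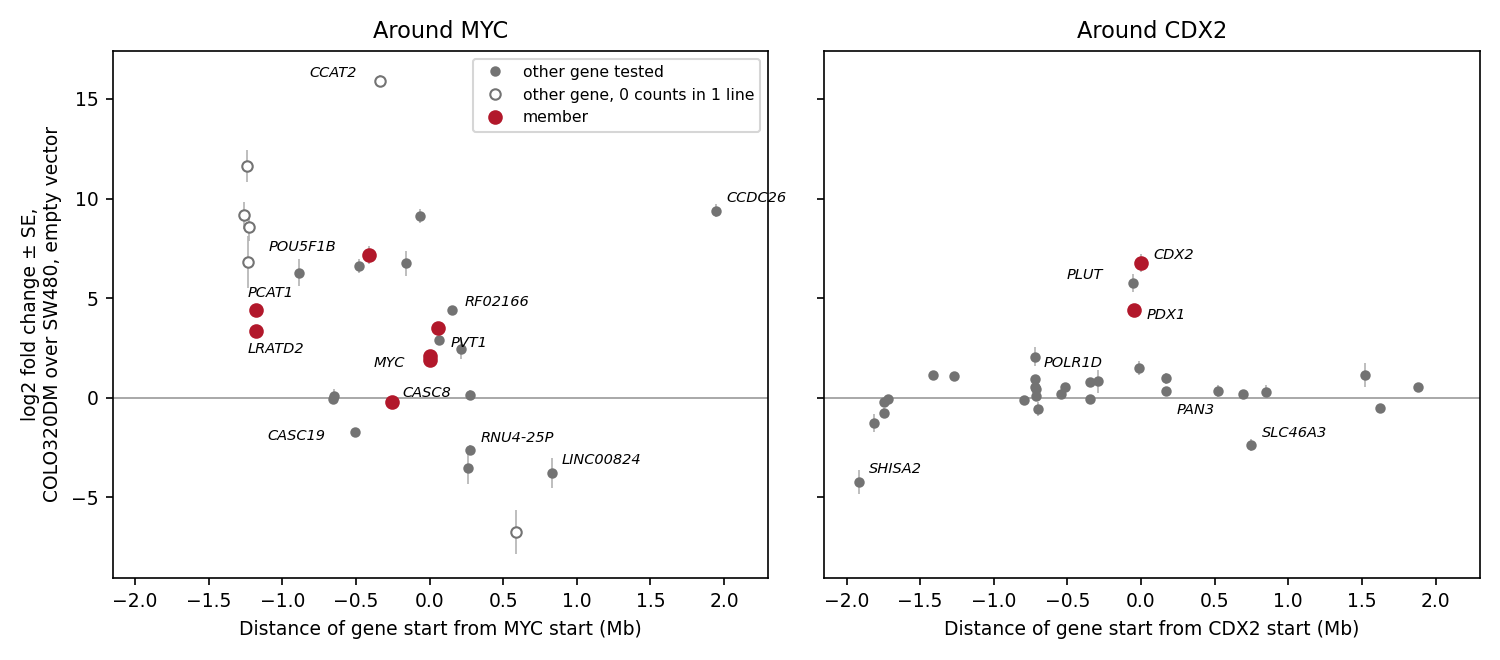
Log2 fold change of COLO320DM over SW480 with empty vector (±SE) for every tested gene within 2 Mb of MYC (left) and CDX2 (right), against the distance in Mb of its start from that of MYC or CDX2. Red points are the genes described here and open points have 0 counts in 1 line, where the fitted value depends on a prior count. High values lie on both sides of MYC in its panel, while CDX2, PLUT and PDX1 stand alone in the CDX2 panel.

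CDX2 (chr13:27960918-27969315, minus strand) was low in SW480 and among the most abundant genes of COLO320DM. It had 1554, 1465 and 1477 CPM in COLO320DM with the HKDC1 plasmid and 1372, 1478 and 1500 CPM with empty vector. SW480 had 24.5, 8.85 and 11.4 CPM with the HKDC1 plasmid and 22.6, 8.66 and 8.55 CPM with empty vector. Replicate 1 was more than the other two in SW480 with either plasmid, and all were far below COLO320DM. The log2 fold change was 6.77 (SE 0.46, adjusted p = 2.14e-08, edgeR), a 109-fold difference, with empty vector and 6.65 (SE 0.46, adjusted p = 2.55e-08) with the HKDC1 plasmid. It was 7.39 without SW480 empty-vector replicate 1 and 7.42 without replicate 1 of every group. Per kilobase of exon CDX2 ranked 103 of 23684 genes in COLO320DM and 10372 in SW480 with empty vector. Log2 fold changes above 6 that passed were found for 2.62% of all genes tested.

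PDX1, beside CDX2 on the other strand (chr13:27920000-27926313, plus strand), was higher in COLO320DM at a far lower level. It had 23, 24.3 and 25.2 CPM in COLO320DM with the HKDC1 plasmid and 30.8, 27.9 and 26.2 CPM with empty vector. SW480 had 1.42, 1.22 and 1.86 CPM with the HKDC1 plasmid and 1.69, 1.03 and 1.34 CPM with empty vector. The lines did not overlap, and the log2 fold change was 4.38 (SE 0.18, adjusted p = 1.61e-10, edgeR) with empty vector and 4.01 (SE 0.18) with the HKDC1 plasmid. The PDX1 count was 1.96% ± 0.256 of the CDX2 count in COLO320DM and 11.7% ± 4.11 in SW480 with empty vector (SD, n = 3 each).

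PLUT, the antisense RNA that shares the PDX1 locus and starts −0.052 Mb from CDX2, was higher as well. It averaged 3.78 ± 0.613 CPM in COLO320DM and 0.0687 ± 0.0591 CPM in SW480 with empty vector (SD, n = 3 each), a log2 fold change of 5.76 (SE 0.44, adjusted p = 6.6e-08, edgeR). LNX2, POLR1D and PAN3, coding genes further out, had smaller differences, though POLR1D and PAN3 passed as higher with empty vector. LNX2, a ubiquitin ligase gene at −0.349 Mb, had a log2 fold change of −0.09 (SE 0.10, adjusted p = 0.424, edgeR) with empty vector. POLR1D, an RNA polymerase subunit gene at the same distance, had 0.78 (SE 0.09, adjusted p = 2.8e-06, edgeR). PAN3, a deadenylase subunit gene at 0.169 Mb, had 0.31 (SE 0.11, adjusted p = 0.0184, edgeR) with empty vector. It did not pass with the HKDC1 plasmid (0.13, SE 0.11, adjusted p = 0.303, edgeR). Within 2 Mb of CDX2, 13 of 32 tested genes (40.6%) passed as higher and 6 as lower, against 34.3% and 37.3% of all genes tested. Without CDX2 and PDX1, 11 of 30 (36.7%) passed as higher and 6 as lower. On chromosome 13 as a whole, 55.9% of tested genes passed as higher. Under 0.5 Mb from CDX2, with CDX2 and PDX1 themselves counted, 7 of 9 passed as higher and 0 as lower with empty vector. Between 0.5 and 1 Mb, 3 of 13 passed as higher and 1 as lower, and between 1 and 2 Mb 3 of 10 and 5. With the HKDC1 plasmid, 6 passed as higher and 0 as lower under 0.5 Mb, 6 and 2 between 0.5 and 1 Mb. Between 1 and 2 Mb it was 3 and 4. Besides CDX2, PLUT and PDX1, the largest rises within 2 Mb were LINC00412 with 2.05 and LINC00543 with 1.5 on the log2 scale. The largest falls were SHISA2 with −4.23, SLC46A3 with −2.38 and ATP8A2P3 with −1.28.

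CDX2 and PLUT were both higher in COLO320DM than in SW480. Their promoters are shown as the reference sequences from RefSeq for GRCh38.p14, 250 bases upstream of each start on the minus strand, read 5′ to 3′. The CDX2 stretch is chr13:27969316-27969565 and the PLUT stretch is chr13:27917292-27917541. Capitals mark a match to TTTATNG, the letters of a CDX binding motif, found on the opposite strand. TATAAA and the E-box CACGTG were also searched for on both strands.
CDX2: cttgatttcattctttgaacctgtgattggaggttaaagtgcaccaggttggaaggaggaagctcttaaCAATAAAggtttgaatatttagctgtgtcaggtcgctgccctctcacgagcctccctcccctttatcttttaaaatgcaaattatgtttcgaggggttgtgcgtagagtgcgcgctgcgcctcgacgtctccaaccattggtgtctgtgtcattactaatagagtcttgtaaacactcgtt
PLUT: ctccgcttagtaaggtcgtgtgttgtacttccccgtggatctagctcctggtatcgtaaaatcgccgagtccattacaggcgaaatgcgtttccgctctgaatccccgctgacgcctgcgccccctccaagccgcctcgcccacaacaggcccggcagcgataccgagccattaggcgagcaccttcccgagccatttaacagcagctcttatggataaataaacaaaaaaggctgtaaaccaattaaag
The CDX2 stretch held 1 match to TTTATNG and the PLUT stretch held 0, while 8.93% of 35116 promoters of the same length held at least 1. Neither stretch held TATAAA or CACGTG, which were found in 10.7% and 6.34% of promoters. The GC content was 45.2% for CDX2 and 53.6% for PLUT, against a median of 58% over all promoters. A match is a description of the letters, and factor binding was not measured.

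Of 20 intestinal genes that CDX2 activates or works with, 13 were tested. In COLO320DM with empty vector 1 passed as higher and 8 as lower, where 34.3% and 37.3% of all genes tested did, with a median log2 fold change of −3.49, also when genes with 0 counts were set at their bound, against −0.04 over all genes tested. With the HKDC1 plasmid 1 passed as higher and 9 as lower. HNF4A, a nuclear receptor of gut and liver epithelium, averaged 0.0555 CPM in COLO320DM and 85.3 CPM in SW480 with empty vector (log2 fold change −10.52, SE 0.55, adjusted p = 1.52e-09, edgeR). VIL1, the brush-border protein villin, averaged 9.6 CPM in COLO320DM and 323 CPM in SW480 (−5.07, SE 0.21). CDX1, TFF3, MUC2 and GATA6 had 0 counts in all 6 COLO320DM libraries. The gene that passed as higher was ABCB1, a drug efflux pump, with 340 ± 32.7 CPM in COLO320DM and 98.7 ± 18.4 CPM in SW480 (log2 fold change 1.79, SE 0.14, adjusted p = 7.55e-08, edgeR). As given above, the epithelial genes EPCAM and CDH1 were near 0 in COLO320DM.

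**Figure D4:**
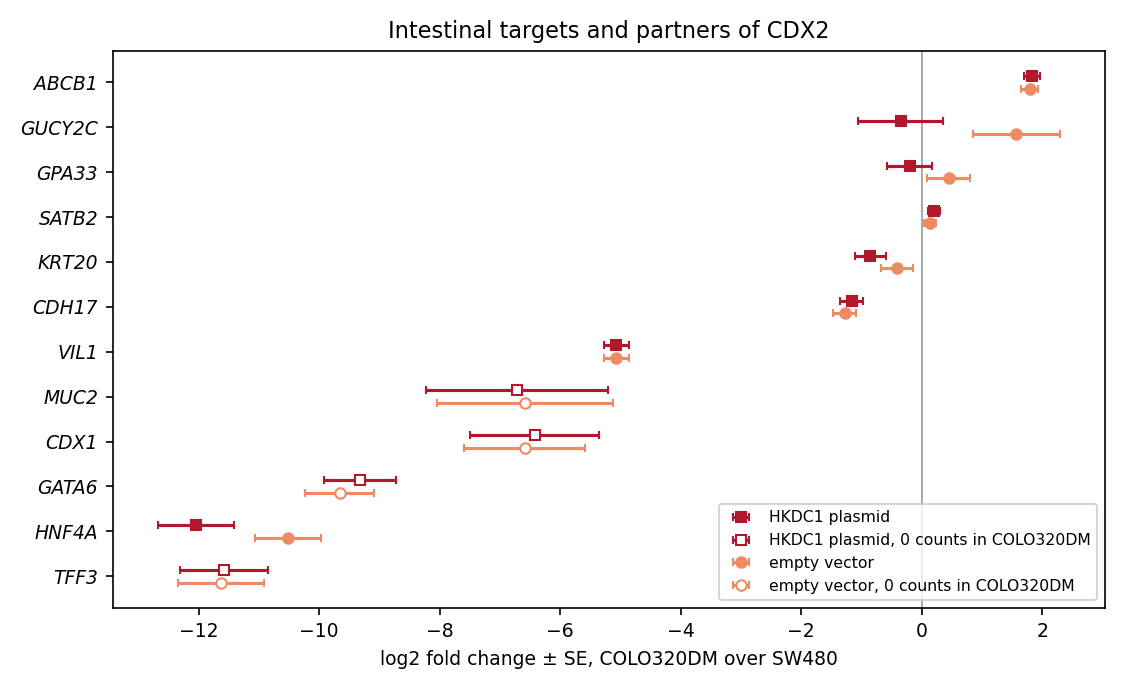
Log2 fold change of COLO320DM over SW480 (±SE) for 12 of the 13 tested intestinal targets and partners of CDX2, with the HKDC1 plasmid (squares) and with empty vector (circles). Open symbols are genes with 0 counts in COLO320DM, where the fitted value depends on a prior count. ABCB1 lies at 1.79 with empty vector, and VIL1 and the genes below it lie at −5.07 or lower.

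Of 16 listed partners and targets of PDX1, 9 were tested, and 4 passed as higher and 4 as lower with either plasmid, against 34.3% and 37.3% of all genes tested with empty vector. NKX6-1, a homeobox factor of pancreatic beta cells, averaged 8.08 CPM in COLO320DM and 0.803 CPM in SW480 with empty vector (log2 fold change 3.33, SE 0.22, adjusted p = 1.89e-08, edgeR). FOXA2, an endoderm pioneer factor, had 0 counts in COLO320DM against 1655 in SW480 over the empty-vector libraries, at least 583-fold lower. MNX1 (−5.51, SE 0.38) and PAX6 (−3.50, SE 0.26), homeobox factors of endocrine and neural cells, were also lower. Insulin (INS) had 0 counts in all 12 libraries. Of the 6 ParaHox genes, the group of homeobox genes that holds PDX1 and CDX2, 3 were tested, of which PDX1 and CDX2 passed as higher and CDX1 as lower.

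Among 11 partners and competitors of MYC for MAX or its relatives, 4 passed as higher in COLO320DM and 3 as lower with empty vector, as with the HKDC1 plasmid, against 34.3% and 37.3% of all genes tested with empty vector. MYCN, the neural MYC paralog, averaged 6.07 CPM in COLO320DM and 1.69 CPM in SW480 (log2 fold change 1.84, SE 0.23, adjusted p = 8.45e-06, edgeR), and MYCL averaged 3.3 and 14.1 CPM (−2.09, SE 0.17). MXD4, a MAX partner that opposes MYC, averaged 58.3 and 9.43 CPM (2.63, SE 0.27), and MXD3 of the same family averaged 115 and 219 CPM (−0.93, SE 0.11). MAX itself had a log2 fold change of −0.24 (SE 0.13, adjusted p = 0.111).

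Few genes that MYC is known to activate were higher in COLO320DM. Of 24 such genes, all tested, 2 passed as higher (CDK4 with 0.48 and APEX1 with 0.83) and 12 as lower in COLO320DM with empty vector, against 34.3% and 37.3% of all genes tested. The counts were 2 and 12 with the HKDC1 plasmid too. The median log2 fold change was −0.33 with empty vector, against −0.04 over all genes tested. EIF4A1, a translation initiation helicase, averaged 688 CPM in COLO320DM and 1181 CPM in SW480 (log2 fold change −0.78, SE 0.09, adjusted p = 4.82e-06, edgeR). FBL, a nucleolar methyltransferase (−0.87, SE 0.10), DKC1, a pseudouridine synthase (−0.69, SE 0.09), and CAD, the enzyme that starts pyrimidine synthesis (−0.95, SE 0.15), were lower as well. These are levels relative to all counts of a library, and total RNA per cell was not measured.

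Between the plasmids, none of the 9 genes passed edgeR's test without pairing. Of all genes tested, 0.00844% passed in COLO320DM and 0.0127% in SW480, and all 9 genes had an adjusted p of 1 in each line. At an unadjusted p under 0.05, 0 of the 9 passed in COLO320DM and 2, MYC and CASC11, in SW480, against 1.32% and 1.5% of all genes. The log2 fold changes of HKDC1 plasmid over empty vector ran from −0.23 to 0.11 in COLO320DM and from −0.23 to 0.17 in SW480. The numbers of the replicates paired the libraries within a line, and with the replicate as a block 0.76% of all genes passed in SW480, 0.595% as lower with the HKDC1 plasmid, and 0.076% passed in COLO320DM.

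MYC was the exception with that block, and its call rests on taking same-numbered libraries as pairs. In SW480 its 863, 751 and 733 CPM with the HKDC1 plasmid were all below its 906, 936 and 914 CPM with empty vector, also within each replicate number. The log2 fold change was −0.23 (SE 0.09, unadjusted p = 0.022, adjusted p = 1, edgeR) without the block and −0.24 (SE 0.06, adjusted p = 0.0284) with it. Leaving out pair 1 with the block gave −0.34 and an adjusted p of 0.00152, leaving out pair 2 gave −0.21 and 1, and leaving out pair 3 gave −0.20 and 0.0801. CASC11, whose reads partly overlap those of MYC, had −0.22 (SE 0.09, adjusted p = 1) without the block and −0.22 (SE 0.06, adjusted p = 0.0715) with it, and it passed with the block without pair 1 (adjusted p = 0.00317). PVT1 had −0.15 (SE 0.09), and the groups of all 3 genes did not overlap, which was so with the HKDC1 plasmid lower for 2.28% of all genes tested.

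In COLO320DM, MYC had a log2 fold change of 0.07 (SE 0.09, adjusted p = 1, edgeR), with all 3 HKDC1 libraries above all 3 empty-vector libraries by a ratio of at least 1.02, as was so for 3.52% of all genes tested. PDX1 had −0.23 (SE 0.15, adjusted p = 1, edgeR) there, with all HKDC1 libraries below all empty-vector libraries, as for 4.22% of genes tested, and an adjusted p of 0.769 with the block. The difference between the plasmid effects of the lines was 0.30 for MYC (SE 0.13, unadjusted p = 0.0334, adjusted p = 1, edgeR; 0.189 with the block), so the effects were not shown to differ. Of all genes, 0.00844% passed for this difference without the block and 0.0422% with it. CDX2 had 0.05 (SE 0.36) in COLO320DM and 0.17 (SE 0.38) in SW480, where the spread was set by the high replicate 1 of both groups. With the block the SE of CDX2 in SW480 was 0.08 and its value 0.19 (adjusted p = 0.366).

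**Figure D5:**
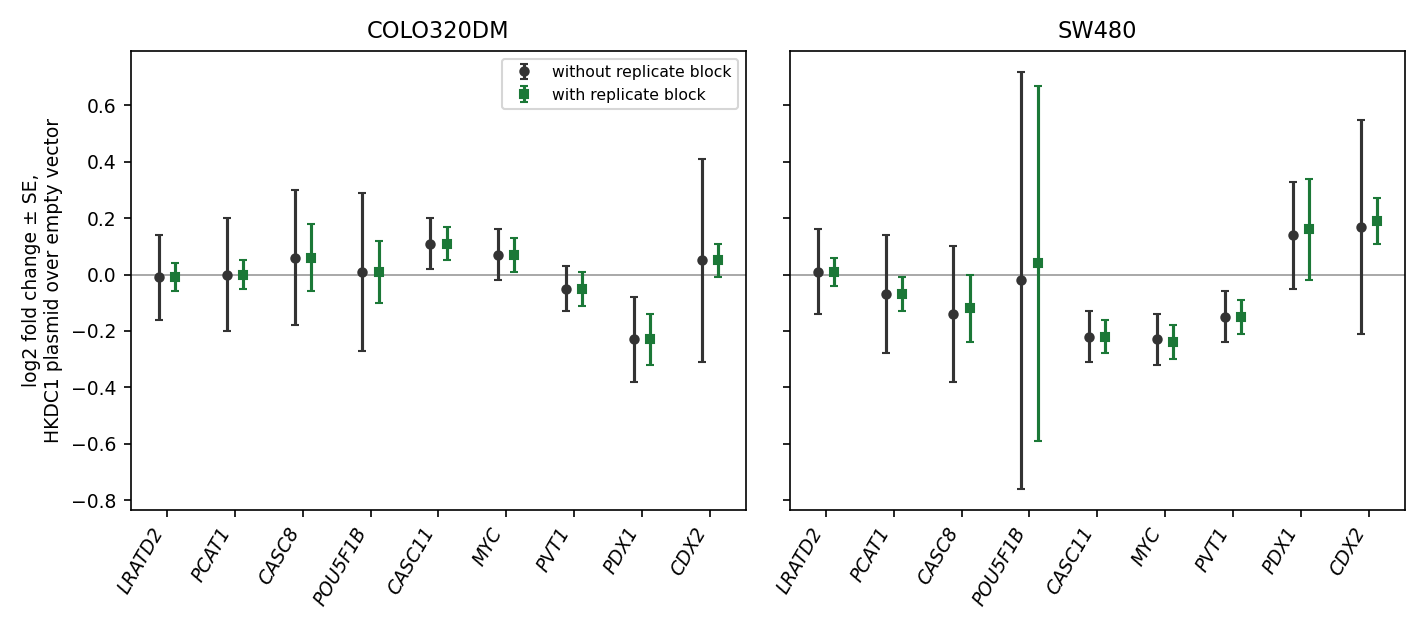
Log2 fold change of HKDC1 plasmid over empty vector (±SE) for the 9 genes in COLO320DM (left) and SW480 (right), without (circles) and with (squares) the replicate number as a block. All values lie between −0.24 and 0.19, and MYC in SW480 with the block, at −0.24, is the one that passed.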

How the data were processed

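RNA was measured in 12 libraries of poly-A selected RNA. The authors deposited 1 table of raw counts per gene, whole numbers with an Ensembl identifier, position and exon length. Per the submitters' processing notes, HISAT2 2.1.0 and limma were used with GRCh38. For the read counter, its annotation release and its strand setting, the entry is not given in the sources used here. Symbols and transcript lengths came from GENCODE 29 and the reference gene tables, and 58584 of 60623 identifiers had a symbol.

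All 12 libraries entered 1 edgeR 4.0.16 model (R 4.3.3) with 4 group means, filterByExpr (minimum count 10, total 15), TMM factors and quasi-likelihood tests. A Benjamini-Hochberg adjusted p under 0.05 over all 23684 genes was called. Its residual degrees of freedom were 8 and its biological coefficient of variation 0.157. The model with the replicate block within each line left 4 residual degrees of freedom and a coefficient of 0.0596. CPM are TMM-scaled, SD is over 3 libraries, and each SE is the size of a log2 fold change over √F of its test. Levels per kilobase used the deposited exon length. The fits without a block were also run on simulated data without a replicate effect, so those runs do not bear on the block. A fold against 0 counts used a floor of 3 counts over the group, which covers counting error only.

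Replicate numbers come from the labels, which state no shared origin. Deviations of same-numbered libraries correlated within COLO320DM (0.4, 0.13 and 0.12) and SW480 (0.72, 0.44 and 0.31), all above 0.1, so they were taken as pairs there, though replicate 2 of one plasmid and replicate 3 of the other were as alike (0.15 and 0.16, 0.47 and 0.37). Across lines they ranged from 0.02 to 0.15 and were not taken as pairs. The genes and lists were chosen with earlier results of these data known. Named neighbours are the 5 largest rises and 3 largest falls within 2 Mb, and up to 4 list genes with the smallest p are named. CASC19, PRNCR1, the features within PVT1, the flanking genes of CDX2, the line markers and other list genes were named after their values were seen. Some listed genes are not reported here by name. Alternatives were RLE factors, library totals, DESeq2 1.42.0, no filter, only the compared groups, the replicate block, leaving out libraries, and 1 or 5 Mb in place of 2 Mb.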

Additional observations from a re-analysis of the deposited data

How the results depend on the processing

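All 8 genes that passed as higher in COLO320DM did so with either plasmid under every alternative run, and the count of all genes called stayed within 1.5 times the reported value (15381 to 18842 with empty vector, 15822 to 18639 with the HKDC1 plasmid). With library totals in place of TMM, 8740 genes were called higher and 8211 lower with empty vector, against 8121 and 8828. The CASC8 value between the lines with empty vector ranged from −0.46 to 0.04 as single libraries were left out. Around MYC, 12 genes passed as higher within 1 Mb and 34 within 5 Mb with empty vector. The HKDC1 comparison gave 13 and 34. Around CDX2, 30 and 31 passed within 5 Mb. These counts differ because more or fewer genes are covered. With the replicate block, the genes called between the plasmids were 18 in COLO320DM, 180 in SW480 and 10 for the difference, against 2, 3 and 2 without it. With the block and pair 1, 2 or 3 left out, an alternative chosen after seeing the data, they were 12, 15 and 31 in COLO320DM, 543, 59 and 135 in SW480, and 49, 19 and 85 for the difference. Without the block, leaving out single libraries gave 2 in COLO320DM, 3 to 5 in SW480 and 2 for the difference, where 5 came without SW480 empty-vector replicate 1. The block changed no call of the 9 genes other than that of MYC in SW480. Of the plasmid values near 0, the sign of POU5F1B turned in COLO320DM with library totals (−0.02) and in SW480 with DESeq2 (0.02) and with the block (0.04), and LRATD2 turned in SW480 with library totals (−0.01). As libraries or pairs were left out, the plasmid value in COLO320DM ranged from −0.04 to 0.16 for CASC8, −0.08 to 0.09 for POU5F1B, −0.04 to 0.02 for LRATD2, −0.02 to 0.02 for PCAT1, −0.10 to 0.02 for PVT1 and −0.01 to 0.09 for CDX2. In SW480 it ranged from −0.41 to 0.10 for CASC8 (0.03 with the block and without pair 3), −0.30 to 0.14 for PCAT1, −0.59 to 2.38 for POU5F1B (−0.73 to 2.61 with the block), −0.15 to 0.16 for LRATD2, −0.38 to 0.77 for CDX2 and −0.05 to 0.30 for PDX1 (−0.03 to 0.35 with the block). None of these passed, and the cause was not tested. With only the SW480 groups POU5F1B failed the filter and has no value. Levels per kilobase depend on the length used: with the longest transcript, MYC averaged 1417 and PVT1 658 CPM per kilobase in COLO320DM with empty vector, against 731 and 44.8 with all exons. The 0 to 17 counts of POU5F1B in SW480 limit the size of its fold.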

Other observations

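Over 1755 windows of 1 Mb with at least 4 tested genes, ordered by median log2 fold change of COLO320DM over SW480 with empty vector, the window that holds LRATD2 and PCAT1 was number 11, with a median of 6.80 and 7 of 7 genes called higher. The next window, with MYC, PVT1, CASC8 and POU5F1B, was number 56 with a median of 2.68 and 11 of 16 called higher. The window of CDX2 and PDX1 was number 340 with a median of 0.67 and 8 of 16 called higher. Medians of windows with genes at 0 in SW480 depend on the prior count, and these genes share reads where they overlap. Genes at or near 0 in SW480 passed the filter only through COLO320DM, so they could not be called lower. Chromosome 8 as a whole was close to all genes, with 35.7% of 820 tested genes called higher and a median of 0.07, while chromosome 13 had 55.9% of 467 called higher and a median of 0.66.

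The genes nearest to MYC in their pattern over the 12 libraries, by Euclidean distance of centred log2 CPM, were AC104472.3 on chromosome 3 (0.27), CHD3 on chromosome 17 (0.34) and PLLP on chromosome 16 (0.35). Those nearest to CDX2 were LINC01929 (0.99), NPTX1 (1.14) and ZNF229 (1.33), and those nearest to PDX1 were NR2E1 (0.58), CUBN (0.64) and TP73-AS1 (0.66). None of the 9 lies on chromosome 8 or 13. All were higher in COLO320DM, with log2 fold changes of 1.92 to 8.95, which is the pattern they were picked for.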
